A study of Mus musculus with 27 samples.

Results

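Genes that rose and fell with the macrophage load of epididymal adipose tissue (EAT, the visceral fat beside the epididymis) were followed among 18 mice fed a Western diet, 9 of them with quercetin in the diet. The load of a mouse was the mean log2 signal of Adgre1, Cd68 and Itgam, 3 genes that mark macrophages. Signals were normalized between arrays by quantiles, converted to log2 and centred within each of the 2 diets, so that differences between the diets did not enter, and each gene was correlated with the load over the 18 mice. The 100 genes with the highest and the 100 with the lowest Pearson r were selected on these measured values as the rising and falling members, out of 18190 genes with a probe set of their own besides the 3 load genes. Since r chose the members, it is given below as a description and without a test. The tests of members concern the 9 mice on the control diet and the differences between diet means, neither of which r used. The errors of the diet differences, however, include the spread within the Western-fed groups, which r did use. Their p-values, and the counts of members passing, are thus not free of the choice of members.

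All 27 mice of the series were male C57BL/6J, bought at 5 weeks of age and kept for 1 week on standard chow. They then ate 1 of 3 diets for 18 weeks, 9 mice on each. The diets were the purified diet AIN93G (control), a Western diet with 39.9% of its energy from fat and 34.0% from sucrose, with added cholesterol, and the same Western diet with 0.05% quercetin, a plant flavonol. The mice lived 3 to a cage and the cages are not given, so p-values measure the spread between mice, some of which shared a cage. RNA of each mouse was read on 1 Affymetrix mouse genome array, with 45101 probe sets against the 3' part of transcripts. The median signal of an array ran from 25.2 to 54.4 as deposited, and precision is limited by how many arrays there are.

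Macrophages of fat descend from yolk-sac and fetal cells and, in obesity, largely from blood monocytes that enter the tissue. They gather around dying adipocytes in crown-like structures, take up the lipid these cells release, and break it down in lysosomes. Adipocytes fill most of the tissue volume and supply most of its transcripts for lipid synthesis and, with their mitochondria, for oxidation of fatty acids and branched-chain amino acids. A bulk signal counts all cells together, so fewer cells of a type and less RNA per cell cannot be told apart.

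The arrays carried the transcripts of fat, and some carried those of neighbouring or other tissues. The mean log2 signal over 16 adipocyte markers lay between 11.07 and 11.71 on all 27 arrays. One text of the labels speaks of liver while the tissue label names EAT, and the mean over 8 liver genes ran from 2.38 to 11.42. It was above 7.5 on Western diet replicates 1, 4, 5 and 6 and on quercetin replicates 5 and 8, and at most 4.17 and 6.67 on the other arrays of these diets, while its highest control value was 8.25, in replicate 1. Western diet replicates 4 and 6, with liver means of 11.42 and 10.08, were also the mice with the lowest load on that diet, so results were recomputed without these 6 arrays. Among the controls, replicate 3 was the highest in T cell and B cell genes, replicate 6 in testis genes and replicate 4 in smooth muscle genes. The part these tissues play in the results was not tested beyond the values given without such arrays.

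Macrophage load differed severalfold between mice that ate the same diet. On the Western diet its lowest, median and highest values were 8.40, 9.75 and 9.92 (mean 9.39 ± 0.58 SD, n = 9), a 2.86-fold range. With quercetin they were 7.54, 8.48 and 9.40 (8.50 ± 0.65, n = 9), a 3.64-fold range. The control diet gave 6.84, 7.42 and 8.29 (7.44 ± 0.47, n = 9), a 2.74-fold range. Every Western diet mouse lay above every control mouse, while the quercetin mice overlapped both groups. Western diet replicate 4 had the lowest load of its diet and replicate 7 the highest, and in the quercetin group these were replicates 3 and 8. The 3 load genes followed each other, with r of 0.956 between Adgre1 and Cd68, 0.852 between Adgre1 and Itgam and 0.844 between Cd68 and Itgam over the 18 mice.

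**Figure D1:**
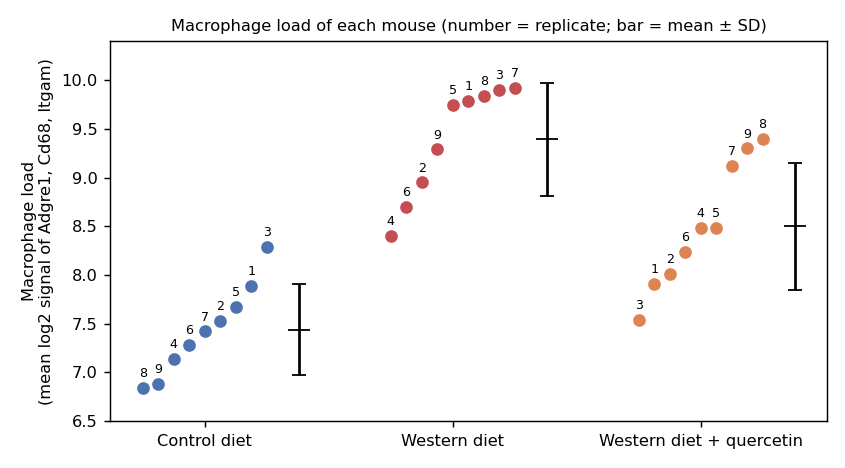
Macrophage load of each mouse (mean log2 signal of Adgre1, Cd68 and Itgam, vertical axis) by diet, with the replicate number above each point and the mean ± SD of 9 mice as a bar. The control mice lie between 6.84 and 8.29, the Western diet mice between 8.40 and 9.92, and the quercetin mice between 7.54 and 9.40.

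Load was set beside 3 technical measures of the arrays, with 100000 permutations within diet and adjustment over the 3. The 3' to 5' log2 ratio of Gapdh, a sign of RNA integrity, gave r = 0.326 (permutation p = 0.21, adjusted 0.32) and Spearman rho = 0.34 (permutation p = 0.19, adjusted 0.29), with r of 0.214 on the Western diet, 0.405 with quercetin and 0.106 without the 2 mice farthest from the median load. The same ratio of actin gave r = -0.39 (permutation p = 0.13, adjusted 0.32) and rho = -0.377 (permutation p = 0.15, adjusted 0.29), with r of -0.668 on the Western diet, -0.246 with quercetin and -0.326 without those 2 mice. The median signal before normalization gave r = 0.073 (permutation p = 0.78, adjusted 0.78) and rho = 0.001 (permutation p and adjusted p of 1), with 0.331 and -0.212 within the diets and 0.229 without the 2 mice. None of these relations passed the test, and the value farthest from 0 within a diet was that of actin in Western diet mice.

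Many more genes followed the load upward closely than downward. Over the 18 mice 975 genes (5.36%) had r of at least 0.7 and 483 (2.66%) had r of -0.7 or below, and at 0.9 the counts were 233 and 19. The rising members ran from r = 0.982 for Rgs10 to 0.944 for Hpgds, with Il10rb at 0.944 the first gene outside. The falling members ran from r = -0.947 for Acvr1c to -0.828 for Tbc1d19, with Eif2b3 at -0.827 the first outside. Slopes, as log2 signal per log2 unit of load, were steep for the rising members, with a median of 0.93 and a range from 0.16 for Mtpn to 1.96 for Atp6v0d2. The falling members sloped less, with a median of -0.36 and a range from -1.11 for Ces1f to -0.13 for Atp5h. In level, 99 rising and 97 falling members lay above the median gene.

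**Figure D2:**
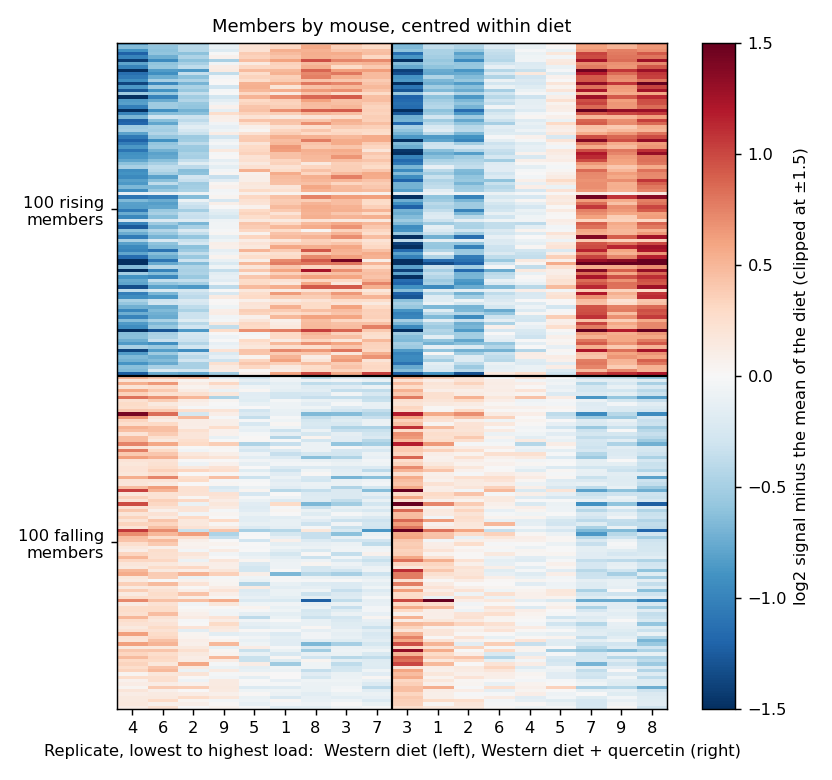
Log2 signal minus the mean of the diet (colour, clipped at 1.5) for the 100 rising and 100 falling members (rows, by rank of r) in the 18 mice (columns, from lowest to highest load within each diet). Rising members go from blue to red from the mouse of lowest load to that of highest load in both diets, and falling members go the other way with paler colours, with median slopes of 0.93 and -0.36.

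The values of r in fewer of the same 18 mice describe the members further and, as part of what chose them, are no check of them. On the Western diet the lowest r of a rising member was 0.903 (Rgs1) and with quercetin it was 0.923 (Tmem106a), while the weakest falling members were Acads at -0.671 and Scn7a at -0.747. Without the 2 mice of most extreme load (Western diet replicate 4 and quercetin replicate 3) no rising member was below 0.913 and no falling member above -0.743. Without the 6 arrays high in liver genes all 100 rising members had r of at least 0.904 and all 100 falling members r of -0.726 or below. The 2 directions differed in their dependence on scaling. With signals as deposited, not scaled between arrays, 100 rising but only 20 falling members were past 0.7, and with arrays shifted to a common median 99 and 61 were. The falling members stayed negative under both, with a highest r of -0.217, and the median r over all genes was -0.04 after quantile normalization, 0.11 without scaling and -0.01 after the median shift.

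Several members belong to families of like sequence (Cd300, Clec4, Fc receptors, lysozymes, paired immunoglobulin receptors, glutathione transferases), whose probe sets may read each other's transcripts, and this was not tested. Where a rising member had further probe sets of signals above the median level, all 70 of these had positive r and 62 had at least 0.7. For falling members 59 of 63 such probe sets were negative and 26 were at -0.7 or below.

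The highest r among all genes belonged to Rgs10, and Spi1 and Csf1r were also rising members. Rgs10, which curbs G protein signalling and is abundant in macrophages and microglia, had lowest, median and highest log2 signals of 8.43, 9.48 and 9.81 on the Western diet and 7.80, 8.42 and 9.30 with quercetin. Spi1 encodes an ets transcription factor that sets the macrophage fate. Its signals were 6.60, 7.89 and 8.13 on the Western diet and 6.09, 6.74 and 7.79 with quercetin (r = 0.976), against 5.47, 5.69 and 7.17 on the control diet. In both genes the mouse of lowest load had the lowest signal of its diet, and the groups overlapped. Csf1r, the receptor for the growth factor that macrophages need to survive, had r = 0.969.

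Promoters of some rising members held the letters that the Spi1 factor is known to bind. The motif GAGGAAGT was searched on both strands in the 250 bases before the first-listed start of each gene (RefSeq, GRCm38.p6), and other motifs were counted separately, overlapping or not. It was present in 8 of the 82 rising members with a promoter sequence (9.76%), in 0 of 83 falling members, and in 2.32% of 14452 promoters of measured genes. AAGGTCA, a part of the site of estrogen-related receptors, was present in 7 rising and 3 falling members against 3.46% of all. TGANTCA, the AP-1 site, was present in 8 and 7 against 5.58%. TCACGTGA, known from lysosomal genes, was present in 1 (Ifi30) and 0 against 1.16%. A match is a description of letters and not a bound site. Shown as examples are the 4 rising members of highest r with the load among those with the first motif. Their relation to Spi1 was not tested. They lie on the minus strand at chr11:114989887-114990136 (Cd300ld), chr6:87496328-87496577 (Arhgap25), chr7:3720383-3720632 (Pirb) and chr4:136892915-136893164 (C1qc). Each run is 5′ to 3′ in the direction of the gene, ends at the base before the start, and has the motif, or its reverse complement ACTTCCTC, in capitals.
Cd300ld: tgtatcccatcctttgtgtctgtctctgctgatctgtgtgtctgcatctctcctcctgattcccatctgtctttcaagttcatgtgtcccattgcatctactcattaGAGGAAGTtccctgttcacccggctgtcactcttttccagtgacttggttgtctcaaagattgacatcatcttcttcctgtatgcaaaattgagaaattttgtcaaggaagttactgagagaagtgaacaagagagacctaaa
Arhgap25: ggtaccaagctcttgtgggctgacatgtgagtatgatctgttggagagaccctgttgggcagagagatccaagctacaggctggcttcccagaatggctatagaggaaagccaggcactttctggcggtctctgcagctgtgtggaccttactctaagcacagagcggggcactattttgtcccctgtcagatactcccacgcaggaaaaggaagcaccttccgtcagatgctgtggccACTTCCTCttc
Pirb: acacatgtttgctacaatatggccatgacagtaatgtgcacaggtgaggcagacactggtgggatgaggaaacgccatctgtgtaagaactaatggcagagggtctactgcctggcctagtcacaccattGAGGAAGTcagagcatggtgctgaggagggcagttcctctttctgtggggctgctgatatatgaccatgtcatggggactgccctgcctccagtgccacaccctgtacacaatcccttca
C1qc: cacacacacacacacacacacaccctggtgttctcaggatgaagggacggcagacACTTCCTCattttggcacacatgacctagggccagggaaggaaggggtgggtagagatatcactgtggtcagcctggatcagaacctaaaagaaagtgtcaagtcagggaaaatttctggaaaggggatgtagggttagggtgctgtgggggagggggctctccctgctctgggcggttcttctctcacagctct

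Several leading members were surface proteins of myeloid cells. The Cd300 family, paired activating and inhibitory receptors for lipids on the membranes of other cells, gave 4 of the 15 leading rising genes. Cd300a, an inhibitory member, had signals of 7.91, 9.21 and 9.43 in Western diet mice, 7.23, 8.04 and 9.09 in quercetin mice and 6.46, 6.81 and 7.61 in control mice. Its Western diet values all lay above those of the controls. Cd300ld, Cd300c2 and Cd300lb had r of 0.980, 0.975 and 0.974. Tyrobp, the adaptor through which Trem2 and other receptors signal, had 10.28, 11.87 and 12.05 on the Western diet and 9.54, 10.58 and 11.69 with quercetin (r = 0.978). C3ar1, the receptor for the complement fragment C3a, spanned a wider range, with 8.10, 9.98 and 10.49 and 7.02, 8.46 and 9.79. Adam8, a surface protease of leukocytes, had the steepest slope of these (1.56), from 8.11 to 10.28 and from 6.29 to 9.77.

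Whole sets of macrophage machinery followed the load, as lists chosen for this tissue show. Median r was 0.95 over 16 other macrophage markers, 0.94 over 5 subunits of the NADPH oxidase that makes superoxide, 0.92 over 14 leukocyte integrins and actin regulators, and 0.89 over 15 Fc gamma receptors and their signalling partners, beside -0.04 over all genes. Cybb, the catalytic subunit of the oxidase, had signals of 9.05, 10.44 and 10.87 on the Western diet and 8.40, 9.0 and 10.31 with quercetin. Itgb2, the integrin chain that pairs with Itgam, had r = 0.97, whereas Itgal, a chain more typical of lymphocytes, had -0.13. Mertk, a receptor for dying cells that is used as a macrophage marker, had the lowest r of the 16 markers at 0.09, and 13 of them were at 0.7 or above.

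Genes of lysosomes and lipid handling followed the load as well, but not all of them. Of 19 lysosomal cathepsins and hydrolases 15 had r of at least 0.7 (median 0.90), and of 16 proton pump subunits 8 did (median 0.71). Lipa, the lysosomal acid lipase that frees cholesterol and fatty acids, had signals of 10.07, 11.22 and 11.36 in Western diet mice, 9.02, 10 and 11.15 in quercetin mice and 8.66, 9.18 and 9.84 in control mice. Its Western diet mice did not overlap the controls. Atp6v0d2, a pump subunit of macrophages and osteoclasts, had the steepest slope of the members, from 8.16 in the Western diet mouse of lowest load to 10.39 in that of highest load and from 5.72 to 10.12 with quercetin. Gpnmb, a glycoprotein of lipid-laden macrophages, went from 9.05 to 11.34 and from 6.97 to 11.30 between the same mice. Among 18 genes of lipid-associated macrophages 11 were at 0.7 or above (median 0.84), including Trem2 at 0.90 and Cd9 at 0.92, but Apoe had r = -0.58 and Acp5, an acid phosphatase, r = -0.83 as a falling member.

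Not every macrophage or immune list had a high median r. Genes of resident or alternatively activated macrophages split, with Folr2 at 0.95 and Mrc1 at 0.88 against Lyve1 at -0.26, Timd4 at -0.08 and Retnla at -0.01 (median 0.39 over 18). Antigen presentation by MHC class II had a median r of 0.82 and by class I 0.35. T cell, B cell, NK cell and mast cell genes had medians of -0.02, 0.01, -0.09 and 0.01, and no T cell gene reached 0.7. These lists were dim. Their mean log2 signals in the Western-fed mice ran from 4.44 to 5.09, 4.37 to 5.57, 4.33 to 5.39 and 3.30 to 4.94. At such signals r near 0 cannot show that these cells did not follow the load. Interferon-induced genes had a median of -0.28 over 14, with Oas1a at 0.78 and Cxcl10 at -0.51. Of the chemokines Ccl9 and Ccl6, both made by myeloid cells, had 0.97 and 0.96, while Cxcl9, which draws T cells, had -0.70. Tnf had r = 0.59, Il6 0.17 and Il1b -0.29.

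Genes of dividing cells and of matrix had positive r. Of 19 cell cycle genes 14 had r of at least 0.7, with Rrm2 at 0.90 and Mki67 at 0.86, and none was negative. Other probe sets of Rrm2, of lower signal, had 0.301 and 0.566. Fibrillar collagens followed (Col1a2 0.85, Col3a1 0.81, Col1a1 0.81), as did fibronectin (Fn1 0.90) and the protease inhibitor Timp1 (0.92), while Dcn, a proteoglycan of the same matrix, had 0.13. The mean of 9 fibroblast genes had r = 0.81 with the load, whereas the means of endothelial and smooth muscle genes had -0.61 and -0.60. Mmp9, a gelatinase, had the lowest r of 15 matrix proteases and inhibitors, -0.85, at a dim mean log2 signal of 5.47.

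**Figure D3:**
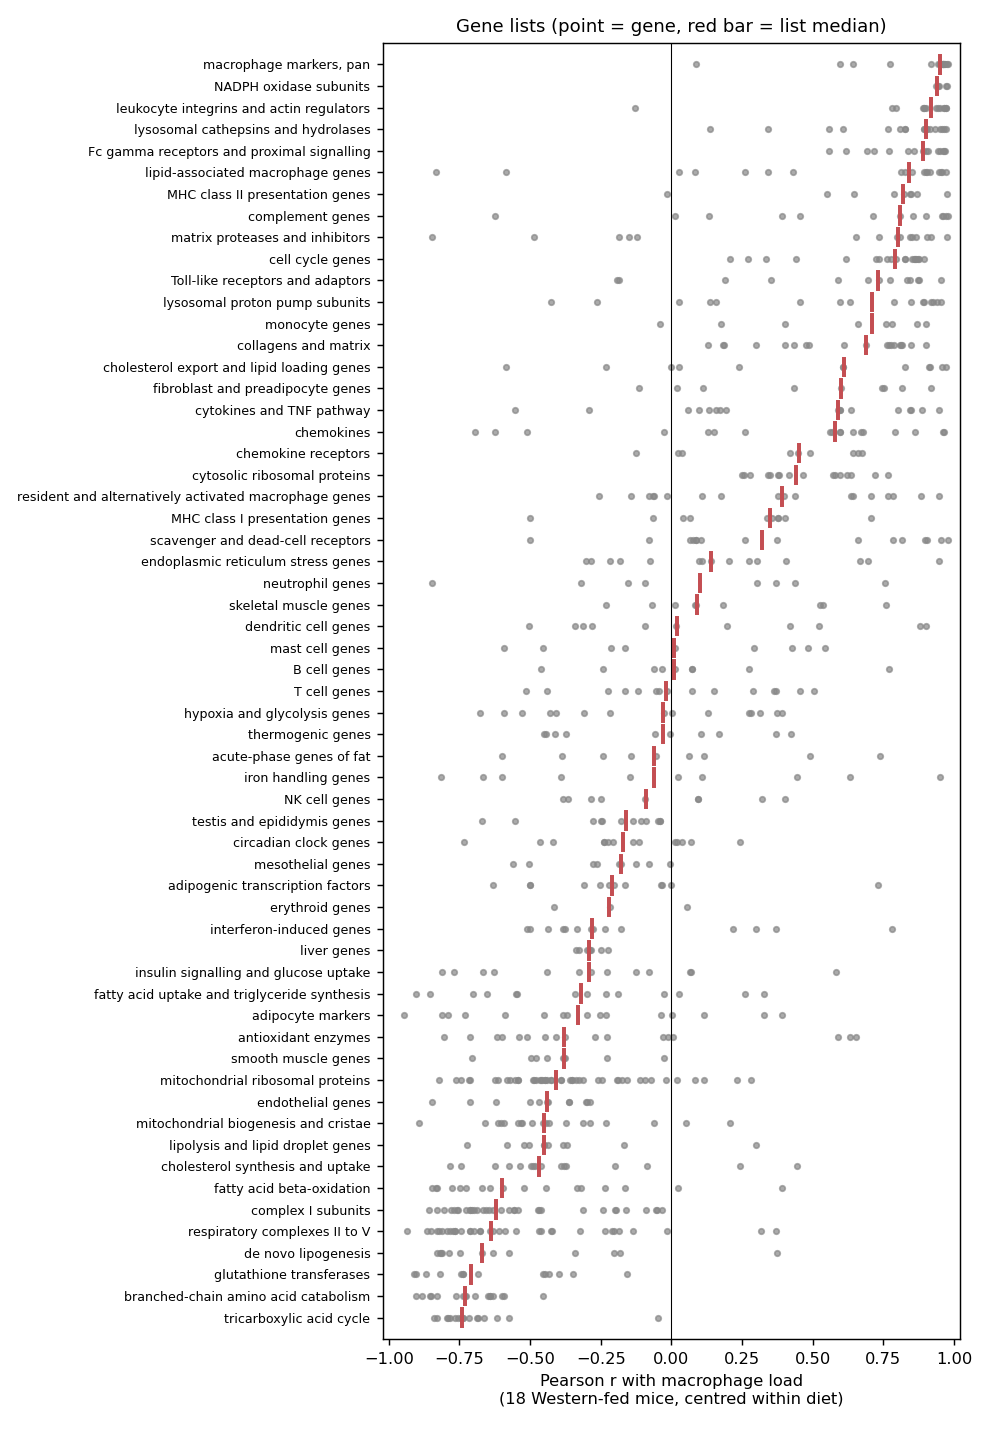
Pearson r with the load over the 18 Western-fed mice (horizontal axis) for each gene (grey points) of 59 gene lists (rows), with the list median as a red bar. The lists of macrophage markers, NADPH oxidase subunits and lysosomal hydrolases lie at the right end with medians of 0.95, 0.94 and 0.90, lymphocyte lists near 0, and the tricarboxylic acid cycle list at the left end with -0.74.

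The falling members were led by genes of adipocyte signalling and of mitochondria. Acvr1c, an activin receptor kinase of adipocytes, had lowest, median and highest signals of 9.20, 9.45 and 10.14 on the Western diet and 9.24, 9.85 and 10.39 with quercetin (r = -0.947), against 9.84, 10.18 and 10.91 on the control diet. It went from 10.14 to 9.33 and from 10.39 to 9.24 between the mice of lowest and highest load of the 2 diets. Atp5b, the catalytic beta chain of ATP synthase, varied little, from 12.24 to 12.55 and from 12.23 to 12.63, yet in nearly the order of the load (r = -0.934). Its slope of -0.21 was among the flatter ones of the named falling genes, and the 3 diets overlapped.

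Enzymes of sulfur amino acids, detoxification and lipid synthesis stood beside them. Cdo1 and Csad make taurine from cysteine and had r of -0.926 and -0.919. Gsta3, a glutathione transferase that conjugates lipid peroxidation products, had one of the steepest negative slopes, with signals of 7.99, 8.45 and 10.08 on the Western diet and 8.33, 9.38 and 10.46 with quercetin (-1.06 per unit of load). Of 14 glutathione transferases 7 had r of -0.7 or below (median -0.71), and none was positive. Mogat1, which makes diacylglycerol, had r = -0.904 and Abcd2, a peroxisomal fatty acid transporter, -0.921. Other probe sets of Abcd2, of lower signal, had -0.601, -0.252 and -0.292. Fasn, the fatty acid synthase, had -0.83 and 6 of 13 lipogenic genes were at -0.7 or below, while Scd1 had 0.38. Bche (a cholinesterase), Ptprd (a receptor phosphatase), Slc2a13 (a myo-inositol transporter), Fah (tyrosine breakdown), Ppa1 (a pyrophosphatase), Coq7 (ubiquinone synthesis), Ghitm (a mitochondrial inner membrane protein) and Glb1l2 (a galactosidase-like protein) completed the 15 leading falling genes, with r between -0.931 and -0.906.

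Mitochondrial lists had negative medians that lay nearer 0 without quantile normalization. Median r was -0.74 over 17 genes of the tricarboxylic acid cycle and -0.73 over 17 of branched-chain amino acid breakdown, where every gene was negative. Unscaled signals gave -0.39 and -0.35, and the median shift -0.54 and -0.58. Complex I had -0.62 over 34 subunits and complexes II to V -0.64 over 35, against -0.23 and -0.26 unscaled. Mitochondrial ribosomal proteins had -0.41 over 46, and 0.00 unscaled. Immt, which holds the cristae junctions, was the lowest of the cristae and biogenesis genes at -0.89, and Ppargc1a had -0.45. The 16 adipocyte markers had a median r of -0.33, and -0.22 unscaled, and 1 of them, Acvr1c, is a falling member. The mean of the 16 had r = -0.84 with the load in the Western-fed mice and 0.02 in the control mice. The part of this mean in the falling members' values was not tested. Of the 16 markers 12 had negative r, among them Slc2a4 (the insulin-responsive glucose transporter) at -0.81 and Retn at -0.79, and 4 had positive r, namely Car3 at 0.003, Adipoq at 0.12, Fabp4 at 0.33 and Lep at 0.39.

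**Figure D4:**
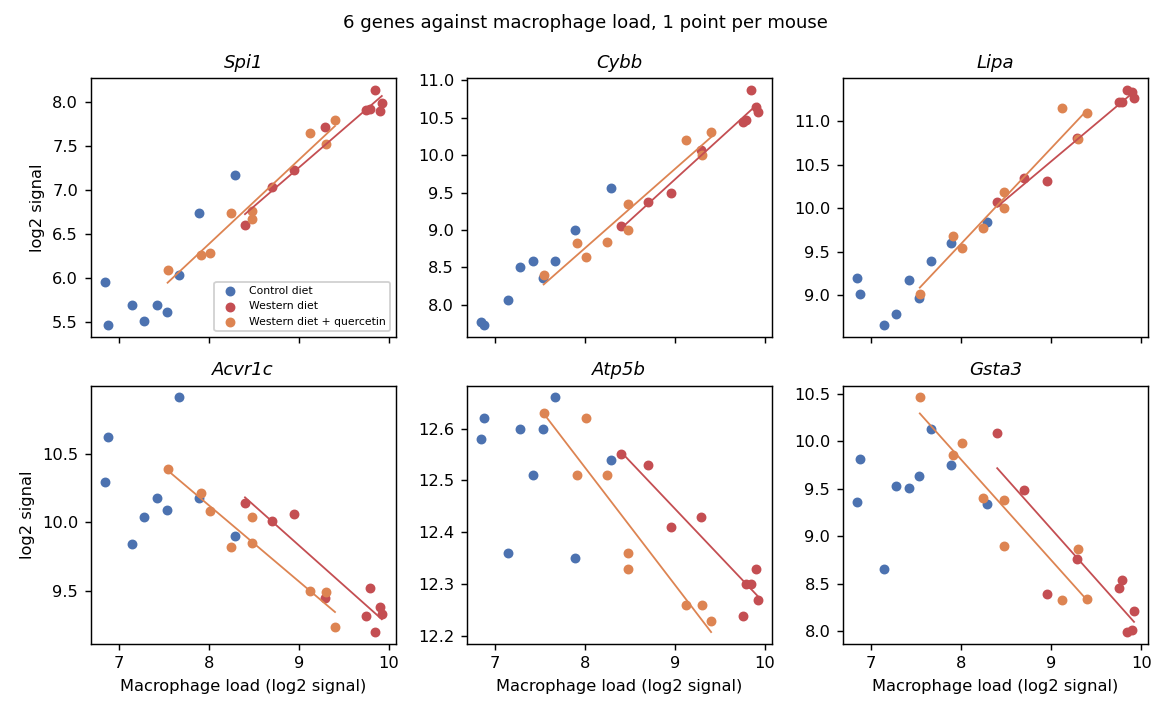
Log2 signal (vertical axes) against macrophage load (log2 signal, horizontal axes) of the rising genes Spi1, Cybb and Lipa and the falling genes Acvr1c, Atp5b and Gsta3, 1 point per mouse in 3 diets, with a straight line fitted in each Western-fed group. The Western-fed mice lie along the lines in all 6 genes, as the choice of members by r implies. In the 9 control mice the slopes are 1.19 for Cybb (limma adjusted p = 0.031), 1.00 for Spi1 (0.34) and 0.60 for Lipa (0.38), and between -0.14 and 0.17 for the lower 3.

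The 9 control mice, which played no part in choosing the members, were used to test whether the slopes were there without the Western diet. Slopes were fitted with limma in these mice alone, with Benjamini-Hochberg adjustment over 18190 genes. For 99 of the 100 rising members the slope was positive (53.4% of all genes), with a median of 0.83 beside 0.93 in the Western-fed mice. At an unadjusted p under 0.05, 83 rose with the load (6.49% of all genes), and 19 passed the adjusted threshold (0.137% of all genes). These 19 were lost with each of several changes, namely leaving out control replicate 1, 2, 3, 4, 7, 8 or 9, fitting without a trend, or taking the load from Itgam alone, each of which left 0. Control replicate 3, the array high in lymphocyte genes, had the highest control load, and without it 97 rising members had positive slopes, 50 passed the unadjusted threshold (3.06% of all genes), and the median slope was 0.67. Markers of other cells moved with the load in the control mice too, with r of 0.85 for the mean of fibroblast genes, 0.83 for T cell, 0.76 for neutrophil, 0.72 for NK cell and 0.68 for B cell genes. In the Western-fed mice these were 0.81, -0.06, -0.04, -0.22 and 0.16. Many rising members, such as Cd53 and Itgb2, are expressed by leukocytes of several kinds, and the part of these cells in the control slopes was not tested.

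Emp3, a small membrane protein, had the smallest p among the members (control slope 1.10 ± 0.11 SE, limma adjusted p = 0.021), with signals of 8.36, 8.95 and 9.95 over the 9 control mice. Cybb had a control slope of 1.19 ± 0.14 (limma adjusted p = 0.031), Evi2a 1.32 ± 0.16 and Gpnmb 1.44 ± 0.18, both with the same adjusted p. Aprt, an enzyme of purine salvage named after its values were seen, was the single rising member with a negative control slope (-0.22 ± 0.39, limma adjusted p = 0.96). Its signal was 10.21 in control replicate 6, the array high in testis genes, and at most 8.90 in the other controls.

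In contrast, slopes of falling members in control mice lay near 0. Their median control slope was -0.07 beside -0.36 in the Western-fed mice, and it was 0.22 without scaling and 0.15 after the median shift, so its sign changed with the scaling. Of the 100 members 64 were negative (46.6% of all genes), 4 fell at an unadjusted p under 0.05 (1.76% of all genes), and 0 passed limma's adjusted threshold (0% of all genes). Those 4 were Nat8l, which makes N-acetylaspartate (slope -0.78 ± 0.21, adjusted p = 0.30), Art3 (-0.42 ± 0.15, adjusted p = 0.48), the complex I subunit Ndufb8 (-0.29 ± 0.12, adjusted p = 0.55) and Gde1 (-0.44 ± 0.18, adjusted p = 0.57). Acvr1c had a control slope of -0.14 ± 0.24 and Gsta3 of 0.17 ± 0.28. The range of load was 1.45 in the control mice, 1.51 in the Western diet mice and 1.86 in the quercetin mice, and whether their slopes differ from those of the Western-fed mice was not tested.

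**Figure D5:**
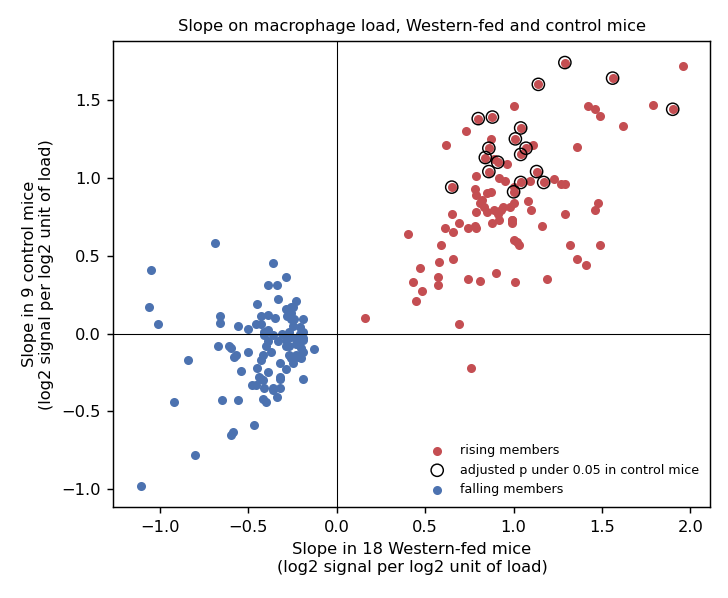
Slope on the load in the 9 control mice (vertical axis) against the slope in the 18 Western-fed mice (horizontal axis), both in log2 signal per log2 unit of load, for the 100 rising (red) and 100 falling (blue) members, with circles around the 19 that passed limma's adjusted threshold in the control mice. Rising members lie above 0 with 1 exception, and falling members scatter around 0 on the vertical axis with a median of -0.07.

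The slopes of the 2 Western-fed groups were compared directly. The interaction of diet and load passed limma's threshold in 0 of all genes (0%), and 1657 genes (9.11%) had an unadjusted p under 0.05. The fit uses the same 18 mice as r, so counts among the members are not given. Without Western diet replicate 2, 8 genes of all passed.

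The diets differed in mean load, and the rising members differed with them. The Western diet mean load was 1.96 above the control mean, and 98 of 100 rising members were higher in the Western-fed mice without quercetin by limma over all 27 arrays (11.3% of all genes), with a median log2 difference of 1.61 (0.27 to 3.51). In 17 of them every Western diet mouse lay above every control mouse (0.924% of all genes). Spi1 differed by 1.61 ± 0.26 (SE, adjusted p = 1e-04), Cd300a by 2.02 ± 0.25 (adjusted p = 7.9e-06) and Atp6v0d2 by 3.51 ± 0.51 (adjusted p = 3.8e-05). Aprt and Acer3 were the members that did not pass, each with a limma adjusted p of 0.19, at differences of 0.44 ± 0.23 and 0.58 ± 0.30. Single control arrays stood out in both. Aprt was 10.21 in control replicate 6, the array high in testis genes, and at most 8.90 in the other controls. Acer3 was 9.11 and 9.27 in control replicates 2 and 4 and at most 7.92 in the others. Without control replicate 4, 99 rising members were higher (10.3% of all genes). The part of these arrays in the values of Aprt and Acer3 was not tested gene by gene. The load difference multiplied by each gene's within-diet slope gave a median of 1.81 beside the measured 1.61. These slopes come from the same Western-fed mice whose r chose the members, so the choice favoured steep ones. Whether load accounts for the diet differences was therefore not tested.

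Falling members differed less between these diets. By limma 50 were lower in Western diet mice than in controls (6.42% of all genes) and 2 were higher (11.3% of all genes). The median difference was -0.31. Load difference times slope gave -0.70, with the limit on these slopes stated above. Without scaling 29 were lower (3.9% of all genes) and after the median shift 19 (3.21%). Gsta4, a glutathione transferase for the lipid aldehyde 4-hydroxynonenal, differed most, with signals of 8.43, 8.95 and 10.14 in control mice, 6.25, 6.82 and 7.90 in Western diet mice and 6.74, 7.89 and 9.83 with quercetin (Western minus control -2.14 ± 0.30 SE, limma adjusted p = 3.5e-05). Its Western diet mice all lay below the controls, which held for 2 of the falling members (0.346% of all genes). Acvr1c differed by -0.62 ± 0.16 (adjusted p = 0.0071) and Ptprd by -0.77 ± 0.13 (adjusted p = 1.9e-04), but Atp5b by -0.16 ± 0.06 (adjusted p = 0.083) and Ghitm by 0.04 ± 0.06 (adjusted p = 0.75). The 2 higher members were Agpat2, an enzyme of triglyceride synthesis (0.31 ± 0.11, adjusted p = 0.044), and Kcnj15, a potassium channel named after its values were seen (0.66 ± 0.21, adjusted p = 0.028), which thus fell along the load within the Western-fed mice and was higher in Western diet mice than in controls.

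Mean load was 0.90 lower in the quercetin mice than in the Western diet mice, and no member passed the adjusted threshold in this comparison. The comparison shares the Western diet mice with the one above. By limma 0 rising members were lower with quercetin (0.0825% of all genes) and 0 falling members were higher (0.253%). Before adjustment, 95 rising members were lower at the 0.05 level (6.42% of all genes) and 47 falling members higher (7.3%). All 100 rising members had negative differences with a median of -0.79, where 8474 of all 18190 genes were negative. For 97 falling members the difference was positive with a median of 0.25, where 9713 of all genes were positive. The falling median was 0.29 without scaling and 0.16 after the median shift. Load difference times slope gave -0.83 for rising and 0.32 for falling members, with the limit on these slopes stated above. For Cybb the difference was -0.83 ± 0.29 (SE, limma adjusted p = 0.17) and for Hpgds, a prostaglandin D synthase, -1.47 ± 0.35 (adjusted p = 0.059). For Nat8l it was 0.94 ± 0.23 (limma adjusted p = 0.067) and for Coq7 0.34 ± 0.09 (adjusted p = 0.085). No member had quercetin and Western diet mice apart without overlap (0.055% of all genes lay below and 0.214% above). With the 2 diets alone in the fit 13 rising members were lower (1.58% of all genes) and 9 falling members higher (2.67%).

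Differences between Western diet and control mice were also counted over the lists. Of 16 macrophage markers 14 were higher by limma (11.3% of all genes), as were 5 of 5 NADPH oxidase subunits, 17 of 19 lysosomal hydrolases, 13 of 14 leukocyte integrins and actin regulators, 9 of 19 cell cycle genes and 16 of 19 collagen and matrix genes, and none of these lists had a lower gene. The median differences were 1.34, 1.39, 0.59, 1.2, 0.77 and 0.62. On the falling side 21 of 34 complex I subunits, 19 of 35 of complexes II to V, 9 of 17 genes of branched-chain amino acid breakdown and 7 of 17 of the tricarboxylic acid cycle were lower (6.42% of all genes), with none higher. After the median shift these were 2, 0, 1 and 1 (3.21% of all genes), and without scaling 7, 1, 5 and 3 (3.9%). The dim list of 15 T cell genes had 0 called in either direction with a median of 0.17.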

How the data were processed

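RNA of the EAT of 27 mice was hybridized to 1 array each. The authors made the deposited values with Microarray Suite and GeneSpring as linear intensities, not scaled between arrays. Annotation gave 34958 probe sets 1 gene, 932 several and 9211 none, 34754 of the first were matched to RefSeq, and 18193 genes were kept, each by its probe set of highest mean over all arrays. Intensities were quantile-normalized, floored at 1 and log2-transformed, which understates changes of dim genes. Groups came from the sample titles. The members, the 59 gene lists and the rule for named genes were chosen with earlier results of these data known. That rule took the 15 leading genes in each direction above the median level, up to 3 genes per list by r, genes past the threshold for a difference of slopes, and the 4 members of smallest control p in each direction.

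Tests used limma 3.58.1 in R 4.3.3 with a variance trend and Benjamini-Hochberg adjustment at 0.05. Control slopes were fitted in the 9 control arrays, the interaction of diet and load in the 18 Western-fed arrays, and diet differences over all 27 with 1 mean per diet. The code was tested on simulated data. Figures used Python 3.11.15 and matplotlib 3.10.9. Alternatives were other scalings, floors and pseudocounts, the mean of all probe sets, other loads, Spearman's rho, no centring, a replicate block, no trend, a filter on level, and each array left out. Leaving out or adjusting for arrays with markers of liver and other tissues was added after seeing the data. Replicate numbers were not taken as pairs, since deviations of same-numbered mice correlated between -0.06 and 0.11 (Western diet and quercetin) and between -0.13 and 0.13 (Western diet and control).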

Additional observations from a re-analysis of the deposited data

Results flagged for a closer look

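For the load, its 3 genes and the 30 leading rising and falling genes, 6 of 102 groups (5.88%) held a mouse whose gap to the nearest other mouse was large for the range of its group, where chance gives about 1 group in 20. All 6 were in the control group and lay on 2 arrays. Control replicate 3, the array highest in lymphocyte genes, lay above the other controls in Cd53 (log2 signal 10.08, next 9.02), Cd300c2 (7.84, next 6.69) and Ifi30 (9.93, next 9.12). Control replicate 6, the array highest in testis genes, lay below the others in Ghitm (11.14, next 11.36), Coq7 (8.75, next 9.26) and Glb1l2 (9.94, next 10.65). Without control replicate 6, 84 rising members passed the unadjusted threshold for the control slope (8.87% of all genes) and 8 falling members did (5.08%, against 1.76% with all controls).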

How the results depend on the processing

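The rising side depended less on the choices than the falling side. Genes with r of at least 0.7 numbered 916 to 1042 with each array left out, and those with r of -0.7 or below 419 to 581. The latter count was 43 without scaling, 143 after the median shift, 206 with the load from Itgam alone, 773 without centring and 1114 with a replicate block, where 1450 genes had r of at least 0.7. Replicate numbers did not pair the mice, and in each comparison 1 of 9 mice correlated best with its own number. Rising members called in the control mice were 89 without scaling (12.9% of all genes), 31 after the median shift (0.495%) and 3 with Adgre1 alone (0.0275%). They were 0 with Itgam alone, without a trend, without replicates 3 and 6, and without replicates 2, 3, 4 and 6 (0% of all genes each). With each control left out they were 0 to 20, the most without control replicate 5 (0.247% of all genes). No setting called a falling member there. Falling members lower on the Western diet were 29 without scaling (3.9% of all genes) and 19 after the median shift (3.21%). With arrays left out they were 35 (without control replicate 5, 5.07% of all genes) to 61 (without control replicate 6, 10.3%). Rising members higher were then 97 (without control replicate 1, 12.2% of all genes) to 99 (without control replicate 4, 10.3%). For quercetin against the Western diet, rising members lower were 2 with a pseudocount of 16 (0.148% of all genes), 5 among genes above the median level (0.715%) and 13 with the 2 diets alone (1.58%). With arrays left out they were 0 to 7, the most without quercetin replicate 8 (0.286%). Falling members higher were 1 with a floor of 32 (0.291%), 5 among genes above the median level (1.48%) and 9 with the 2 diets alone (2.67%). With arrays left out they were 0 to 4, the most without control replicate 6 (1.15%). Genes with different slopes were 1 with Cd68 alone, 1 above the median level and 0 to 8 with arrays left out (8 without Western diet replicate 2). The causes were not tested. Of the 100 leading genes in each direction, those shared with the members were 91 and 37 without scaling, 37 and 47 with Itgam alone, 73 and 61 with the mean of all probe sets, and 82 and 50 without the 6 arrays high in liver genes. For the 30 leading genes, 118 of the values of r in 15 settings moved by more than their jackknife standard error and 330 did not, the smallest absolute r was 0.21, and no sign changed. Dim genes are limited by signal over background.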

Other observations

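Iron genes divided along the load. Slc11a1, the metal transporter of phagocytic vesicles, had r = 0.95 and Hmox1, which frees iron from heme, 0.63, whereas Tfrc, the transferrin receptor, had -0.81 and the iron exporter Slc40a1 -0.67. Other probe sets of Tfrc, of lower signal, had -0.311 and 0.184. Cholesterol genes divided less evenly. Abcg1 (export) had 0.91 and Npc1 (lysosomal release) 0.92, while 12 genes of cholesterol export and lipid loading had a median of 0.61, with 3 negative. The median was -0.47 over 16 genes of synthesis and uptake, among them Pmvk at -0.79. This second median was -0.18 unscaled and 0.14 with a replicate block. Among transcription factors, the stress factor Atf3 had 0.95 and Cebpb 0.73, and Clock, of the circadian clock, -0.73. Other probe sets of Clock, of lower signal, had 0.003, -0.398 and 0.297. Saa3, an acute-phase protein made in fat, had 0.74, while Cp had -0.60. These are values of r over the 18 mice without a test.

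Probe sets annotated to no gene also followed the load. Of 9160 such probe sets, with the array's own control probe sets left out, 156 had r of at least 0.7 and 42 had -0.7 or below, and of 932 annotated to several genes 50 and 12 did.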
